A study of Mus musculus with 3 samples.

Results

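The genes described here are 8 genes of purinergic signalling: the nucleotide receptors P2ry12, P2ry13, P2ry6, P2rx7 and P2rx4, the lysophosphatidylserine receptor Gpr34, the ectonucleotidase Entpd1 (CD39) and the adenosine receptor Adora3. They were taken by name from the count tables of 3 single-cell RNA libraries. All 8 were listed in each of the 3 tables, out of 14221 genes listed in at least 1 of them. None of the 8 was used to define a cell class or state.

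CD11b+ CD45+ cells, a gate that takes microglia and other myeloid cells, were sorted from mouse brain after enzymatic digestion at 37 °C and Percoll enrichment, and libraries were made with a 10x Genomics droplet kit that tags the 3' end of each transcript. The samples were 2 libraries labelled adult wild type (WT 1 and WT 2) and 1 library from an MHC class II-deficient mouse, which carries almost no CD4 T cells; no age label stands on the deficient library. The comparison of the genotypes asks whether microglia differ where CD4 T cells are nearly missing. The deficient group is 1 library, so the spread between deficient animals was not measured.

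Damaged or active cells release ATP and ADP. Entpd1 on the cell surface breaks both down towards AMP, from which other enzymes make adenosine. P2Y receptors are G protein-coupled and P2X receptors are ATP-gated ion channels. In microglia, P2ry12 senses ADP and steers the processes towards sites of injury, P2ry6 senses UDP and is tied to phagocytosis, and P2rx7 opens at high ATP and is linked to inflammasome activation and interleukin 1 beta release.

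In GENCODE release M21 (GRCm38, the assembly also called mm10), P2ry12 (ENSMUSG00000036353.13, chr3:59216272-59262871, minus strand) and P2ry13 (ENSMUSG00000036362.2, chr3:59207892-59210882, minus strand) lie side by side inside the plus-strand gene Med12l. P2rx7 (chr5:122643911-122691432) and P2rx4 (chr5:122707544-122729738) are neighbours on the plus strand. P2ry6 lies at chr7:100937630-100974649 on the minus strand and Entpd1 at chr19:40612366-40741602 on the plus strand. Gpr34 (chrX:13632089-13640858, plus strand) lies inside the minus-strand gene Cask. Adora3 (chr3:105870858-105908926, plus strand) overlaps Tmigd3 on the same strand, so how reads were divided between these 2 genes is uncertain. Whether the counting used strand is not given in the sources used here, which leaves the reads of P2ry12, P2ry13 and Gpr34 with the same limit towards Med12l and Cask.

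In microglia with high immediate early gene content, described further on, 6 members were called lower, so the fall was not particular to 1 chromosome. Among them P2ry6, P2rx7 and Gpr34 lie on other chromosomes than the 3 shown here. P2ry6 and Gpr34 had no promoter entry, and the P2rx7 windows are counted below but not printed. The promoters shown are those of the adjacent pair P2ry12 and P2ry13 and of Adora3, all on chromosome 3. Each is the 250 bases before the RefSeq start on GRCm38.p6, read 5′ to 3′ on the gene's strand, with matches to GAGGAA (the core of many PU.1 sites) and TGANTCA (the AP-1 motif, bound by Fos and Jun proteins) on either strand in capitals. The windows are chr3:59262986-59263235 (P2ry12, minus strand), chr3:59210883-59211132 (P2ry13, minus strand) and chr3:105904171-105904420 (Adora3, plus strand).
P2ry12: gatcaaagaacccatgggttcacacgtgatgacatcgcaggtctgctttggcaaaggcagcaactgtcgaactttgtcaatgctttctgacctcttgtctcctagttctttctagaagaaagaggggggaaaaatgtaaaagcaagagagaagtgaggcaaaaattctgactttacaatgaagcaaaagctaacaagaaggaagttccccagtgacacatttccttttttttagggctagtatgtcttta
P2ry13: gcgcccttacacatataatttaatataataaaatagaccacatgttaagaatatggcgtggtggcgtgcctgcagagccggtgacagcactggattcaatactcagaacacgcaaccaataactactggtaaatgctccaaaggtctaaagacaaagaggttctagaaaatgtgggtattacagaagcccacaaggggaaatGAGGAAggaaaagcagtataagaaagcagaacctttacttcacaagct
Adora3: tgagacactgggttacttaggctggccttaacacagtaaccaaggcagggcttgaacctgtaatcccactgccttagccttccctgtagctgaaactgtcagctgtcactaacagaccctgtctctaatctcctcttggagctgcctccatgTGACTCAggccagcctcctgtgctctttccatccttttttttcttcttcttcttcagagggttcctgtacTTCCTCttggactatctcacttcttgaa
P2ry13 had 1 GAGGAA match that begins 48 bases before the start. Adora3 had 1 TGANTCA match at 98 bases and 1 GAGGAA match, on the opposite strand, at 28 bases. The P2ry12 window held neither motif. Of 32851 RefSeq promoter windows of this length, 23.3% held GAGGAA and 6.75% held TGANTCA. The 6 members with an entry had 8 windows, of which 3 held GAGGAA (P2ry13, Adora3 and 1 of 2 for Entpd1) and 2 held TGANTCA (Adora3 and 1 of 2 for P2rx7). A match is a description of these letters.

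After filtering, WT 1 kept 4340 cells, WT 2 4667 and the deficient library 2257, with median depths of 3384.5, 3338 and 2824 unique molecular identifiers (UMIs). Cells were classed by the share of their UMIs from marker genes. Microglia had at least 0.5% from microglial markers, and cells of the other classes named below had less. Microglia numbered 3916, 4411 and 2201, and their 8 markers, Tmem119 among them, were all listed and made up 2.62%, 2.76% and 2.67% of UMIs. Neutrophils numbered 268, 130 and 18, border macrophages (the macrophages of the meninges and vessels) 27, 19 and 6, classical monocytes 35, 30 and 6 and non-classical monocytes 10, 10 and 17. Pairs of libraries shared 28, 18 and 13 cell barcodes.

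Microglia were split into states by the UMI share of gene lists. Resting microglia (926, 1800 and 1474 cells) had under 0.25% of UMIs from 10 immediate early genes such as Fos and Egr1. Immediate early-high microglia (623, 417 and 133 cells) had at least 2%, and the cells between were called intermediate. Interferon microglia (55, 46 and 35 cells) and Lpl/Cst7 microglia (31, 33 and 8 cells) had at least 3 UMIs and 0.05% from the respective list. They were kept out of the resting set and could hold any immediate early share under 2%. That share was 0.517%, 0.374% and 0.262% in interferon cells and 0.593%, 0.508% and 0.533% in Lpl/Cst7 cells. Resting cells had 0.143%, 0.137% and 0.0874%, and the part of this gap in their comparisons was not tested. These classes are ranges of a score, and 240, 130 and 64 microglia lay between 1.5% and 2.5% immediate early share, close to the upper limit. Levels are a gene's UMIs over all UMIs of the cell set, scaled to the usual CPM unit. A 3' tag library gives a transcript 1 UMI whatever its length, so CPM of different genes are set side by side without a length term.

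In microglia, P2ry12 was the most abundant of the 8 genes at 4179 CPM in WT 1, 4764 in WT 2 and 4106 in the deficient library. Gpr34, which binds lysophosphatidylserine and shares its subfamily of receptors with P2ry12, followed at 2866, 2924 and 2500 CPM. P2ry13, also an ADP receptor, stood at 926, 953 and 949 CPM and P2ry6 at 407, 461 and 542. Entpd1 was next at 323, 337 and 333 CPM. Adora3, a Gi-coupled adenosine receptor, was at 185, 191 and 195 CPM. The ATP-gated channels were lowest, P2rx4 at 121, 116 and 136 CPM and P2rx7 at 105, 106 and 109. The order was the same in all 3 libraries, and no pair of neighbours in it overlapped across libraries.

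Shares of cells with a UMI were read after each cell was thinned to 1000 UMIs. At that depth P2ry12 was found in 96.1%, 97.1% and 96.0% of microglia and Gpr34 in 91.5%, 91.7% and 88.2%. P2ry13 was found in 59.3%, 59.6% and 59.6%, and P2rx7 in 10.5%, 10.7% and 10.9%. Neutrophils, which should lack P2ry12, gave 13.5%, 14% and 0% for P2ry12 at the same depth; their median depths before thinning were 2899, 3122 and 1942.5 UMIs against 3377, 3326 and 2826 in microglia. In the deficient library 15 thinned neutrophils stand behind that value.

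Between the genotypes, none of the 8 genes passed the test in microglia. The deficient library was higher for P2ry6 and P2rx4 and lower for Gpr34 than both WT libraries, but none of these differences passed the test. P2ry6 averaged 434 ± 38.3 CPM in WT (SD, n = 2) against 542, a log2 fold change of 0.33 ± 0.11 (SE, edgeR adjusted p = 0.118). P2rx4 averaged 119 ± 3.85 CPM in WT against 136 (0.20 ± 0.09, edgeR adjusted p = 0.241). Gpr34 averaged 2895 ± 40.8 CPM in WT against 2500 (-0.20 ± 0.13, edgeR adjusted p = 0.432). The other 5 genes lay between -0.12 and 0.06. Over all genes 7.53% of 11881 were called in either direction. An unadjusted edgeR p under 0.05 was found for 2 of the 8 members and for 2275 of the 11881 genes. DESeq2 also called 0 members. The deficient value lay outside the WT range for 6 of the 8, and for 80.9% of all genes tested. Within resting microglia alone the count of called members was also 0, as it was within immediate early-high microglia alone.

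**Figure D1:**
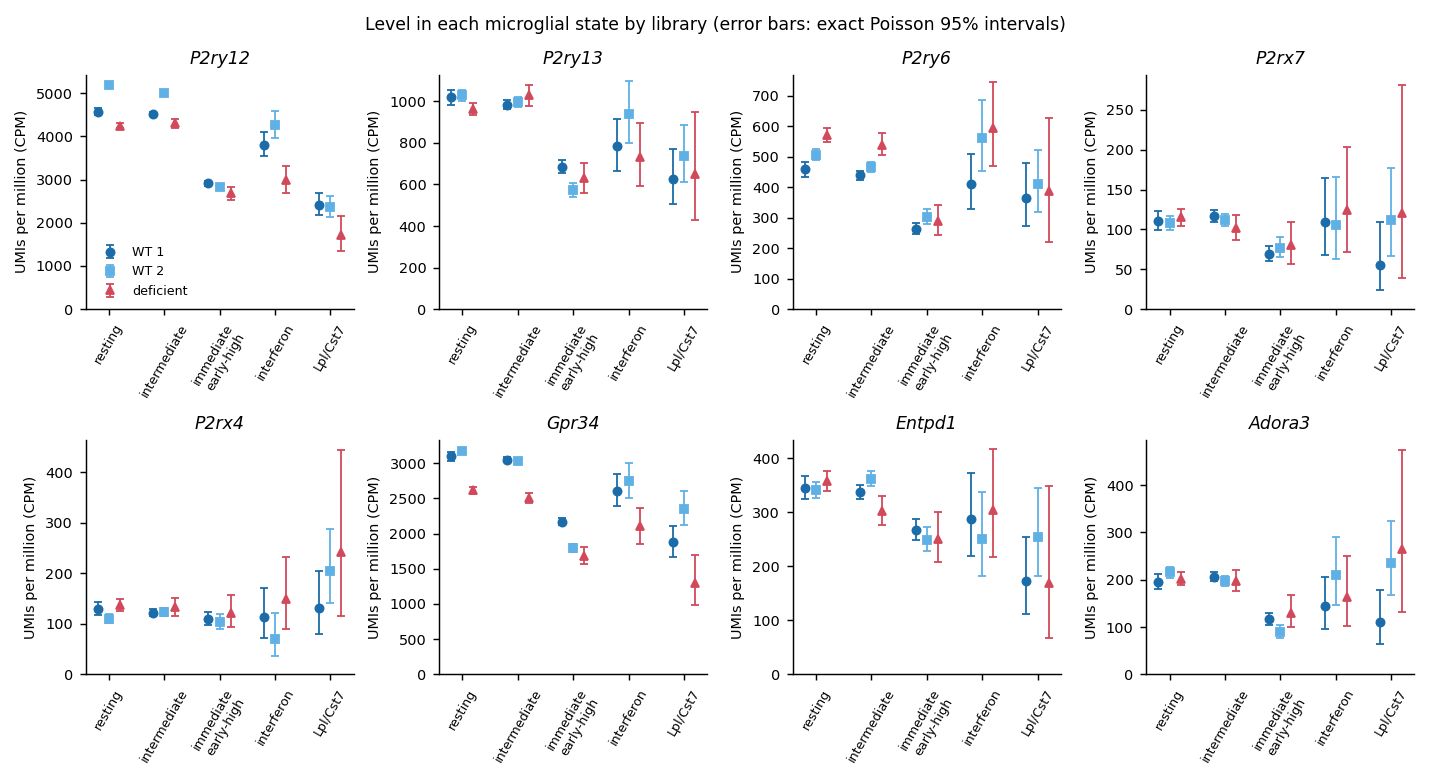
Each panel plots 1 gene's CPM (vertical axis, from 0) in 5 microglial states (horizontal axis) for WT 1, WT 2 and the deficient library, with exact Poisson 95% intervals as bars. The 3 immediate early-high values of P2ry12, 2678 to 2912 CPM, sit below the 3 resting values, 4252 to 5181 CPM.

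Immediate early-high microglia had lower CPM for most of the 8 genes than resting microglia of the same library. P2ry12 was at 2912, 2820 and 2678 CPM in immediate early-high cells (WT 1, WT 2, deficient) against 4571, 5181 and 4252 in resting cells. The states did not overlap. Its log2 fold change with the library as a term was -0.48 ± 0.11 (edgeR adjusted p = 0.00149). P2ry13 was at 686, 572 and 629.9 CPM against 1020, 1030 and 964, again without overlap (-0.43 ± 0.11, edgeR adjusted p = 0.00434). P2ry6 was at 264, 303 and 289 CPM against 459, 506 and 571 (-0.59 ± 0.10, edgeR adjusted p = 0.000103). All 3 P2Y receptors thus fell, and each was lower in all 3 libraries.

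Of the ion channels, P2rx7 was at 69.2, 76.9 and 80.1 CPM in immediate early-high cells against 111, 108 and 115 in resting cells (-0.33 ± 0.11, edgeR adjusted p = 0.0213). P2rx4 was not called: at 110.5, 104 and 122 CPM against 129, 110.0 and 137, the ranges overlapped. Its fitted difference of 0.09 ± 0.11 had an edgeR adjusted p of 0.56 and became -0.16 when libraries were scaled by their totals. Gpr34 was at 2170, 1797 and 1683 CPM against 3097, 3173 and 2616 and fell (-0.41 ± 0.12, edgeR adjusted p = 0.00998). Adora3 fell, with 117, 89.5 and 131 CPM against 195, 215 and 202 (-0.66 ± 0.13, edgeR adjusted p = 0.000385). Entpd1 was at 267, 249 and 251 CPM against 345, 341 and 357, without overlap, and was not called (-0.20 ± 0.11, edgeR adjusted p = 0.162).

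In all, 6 of the 8 genes were called lower and none higher, where 16.1% of the 5608 genes tested were called lower. DESeq2 called 5 members lower, gates on thinned counts 5 and the fit without the library term 4. Of all genes these called 417 of 5608, 748 of 5626 and 432 of 5608 lower. The members' median log2 fold change was -0.42 against -0.03 over all genes. Fewer members were called with a WT library left out: 3 of 8 without WT 1 and 2 of 8 without WT 2, with P2ry6 and Adora3 called in each. Of all genes, 353 of 5588 and 327 of 5763 were then called lower, and 7 of 8 member fold changes stayed below 0. Scaling by library totals moved the median of all genes to -0.27, called 7 members lower with Entpd1 at -0.45, and turned the split of all calls from 1044 higher and 904 lower to 619 and 2415.

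Immediate early-high cells carried more UMIs, with medians of 4305, 4566 and 3465 against 3097, 3284.5 and 2758.5 in resting cells. Counted per cell, P2ry12 stood at 12.9, 13.4 and 9.56 UMIs against 14.7, 17.7 and 12, which is 87.9%, 75.9% and 79.3% of the resting value. Per cell, Gpr34 stood at 96.7%, 79.0% and 81.1% of resting and P2rx4 at 118%, 132% and 113%. Entpd1 per cell was at 107%, 102% and 88.5% of resting. The summed microglial markers made up 2.01%, 1.91% and 2.08% of UMIs in immediate early-high cells against 2.69%, 2.86% and 2.69% in resting cells, and Tmem119 stood at 78.7%, 72.9% and 80.2% of its resting CPM. Per cell, Tmem119 was at 109%, 102% and 101% of resting, while P2ry13 was at 92.8%, 77.4% and 82.3% and Adora3 at 82.4%, 58.0% and 81.5%. Heat shock genes made up 0.544%, 0.796% and 0.630% against 0.22%, 0.246% and 0.196%. All libraries went through the same 37 °C digestion step. The part of depth, of the marker level and of heat shock content in these differences was not tested.

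**Figure D2:**
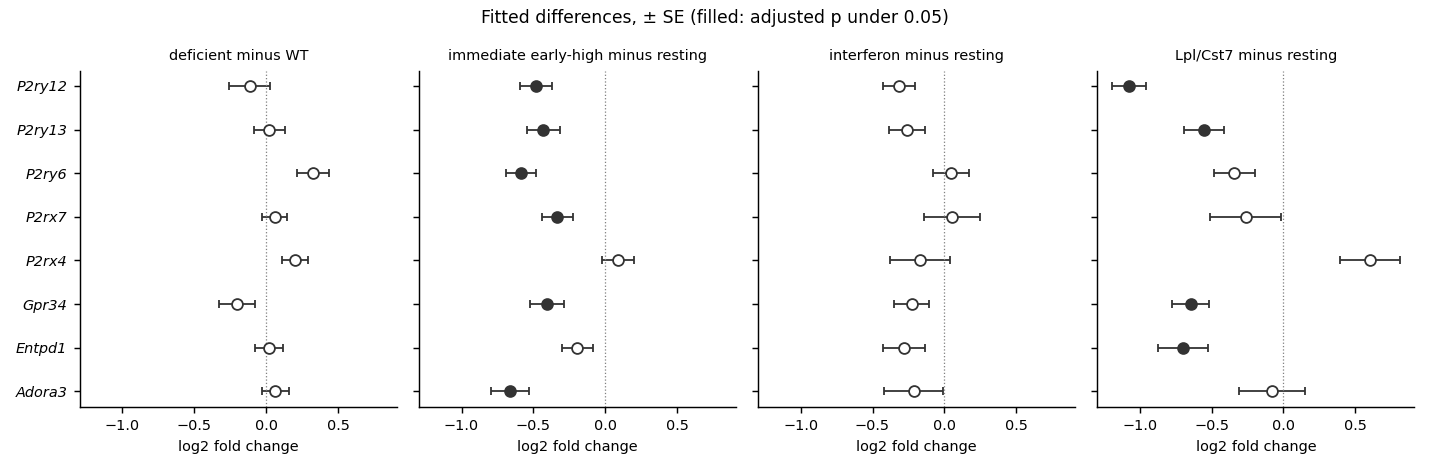
Each panel plots the fitted log2 fold change (horizontal axis) with its SE for the 8 genes (vertical axis) in 1 comparison, and filled points passed an adjusted p of 0.05. The deficient minus WT and interferon panels have 0 filled points, the immediate early-high panel 6 and the Lpl/Cst7 panel 4.

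The levels were also read across the whole range of immediate early share. P2ry12 in WT 1 was at 4436, 4581, 4534, 4481 and 4334 CPM in the 5 bins from under 0.1% to between 1% and 2%, then at 3364 between 2% and 4% and at 2530 above 4%. In the deficient library the same bins gave 4181, 4260, 4445, 4193, 3812, 3055 and 2055 CPM. The level was thus nearly flat over most microglia and lower in the upper bins. Adora3 in WT 2 was between 199.6 and 221 CPM up to 1%, then at 167, 109.9 and 71.7. P2rx4 in WT 1 stayed between 108 and 132 CPM in all 7 bins. These bins share the libraries with the comparison of states and the values are a description.

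**Figure D3:**
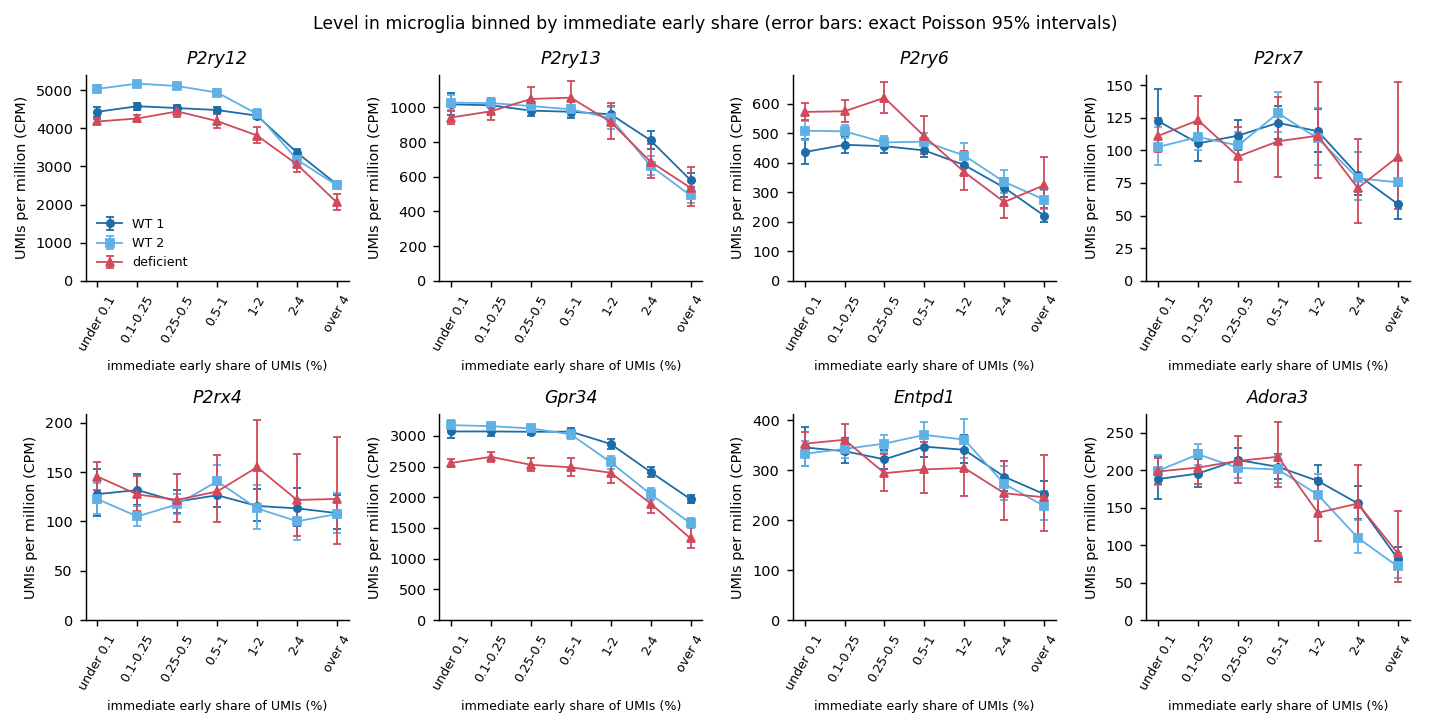
Each panel plots 1 gene's CPM (vertical axis, from 0) in microglia binned by immediate early share of UMIs in percent (horizontal axis) for the 3 libraries, with exact Poisson 95% intervals as bars. P2ry12 lies between 4181 and 5175 CPM in the 4 lowest bins and between 2055 and 2530 CPM above 4%, and P2rx4 lies between 100.2 and 155 CPM in all bins.

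Lpl/Cst7 microglia, named for genes that rise in the disease- and development-associated microglial state, had less P2ry12, P2ry13, Gpr34 and Entpd1 than resting microglia. P2ry12 was at 2421 and 2367 CPM in WT 1 and WT 2 and 1713 in the deficient library, 53.0%, 45.7% and 40.3% of the resting level (-1.07 ± 0.12, edgeR adjusted p = 1.93e-06). P2ry13 was at 628, 739 and 652 CPM (-0.55 ± 0.14, edgeR adjusted p = 0.0145). Neither overlapped the resting values.

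Gpr34 was at 1876, 2348 and 1303 CPM, all below resting (-0.64 ± 0.13, edgeR adjusted p = 0.00244). Entpd1 was at 172, 255 and 169 CPM against 345, 341 and 357 (-0.70 ± 0.17, edgeR adjusted p = 0.0145). P2rx4 was at 131, 205 and 241 CPM against 129, 110.0 and 137 and was not called (0.60 ± 0.21, edgeR adjusted p = 0.089). P2rx4 counts here were 19, 33 and 10 UMIs, with exact Poisson 95% intervals of 78.9 to 205, 141 to 288 and 116 to 444 CPM. P2ry6 (-0.34 ± 0.14), P2rx7 (-0.26 ± 0.25) and Adora3 (-0.08 ± 0.23) were not called.

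Thus 4 of 8 genes were called lower, where 2.19% of the 5608 genes were, and the members' median was -0.45 against -0.05 over all genes. DESeq2 called 4 members lower, gates on thinned counts 3 and the fit without the library term 2. Of all genes these called 71 of 5608, 53 of 5626 and 54 of 5608 lower. Without WT 1 only P2ry12 was called. Without WT 2, 4 were, and without the deficient library, whose sum holds 8 cells, 3 were. Of all genes, 20 of 5588, 55 of 5763 and 65 of 9009 were then called lower. Lpl/Cst7 cells were deeper, with medians of 4211, 4332 and 4879.5 UMIs. Per cell, P2ry12 was at 77.1%, 65.2% and 73.7% of resting and P2ry13 at 89.6%, 102% and 124%. Tmem119 was at 48.6%, 48.7% and 41.3% of its resting CPM and Csf1r, the receptor microglia need for survival, at 71.0%, 77.8% and 78.3%. Border macrophage markers made up 0%, 0.00311% and 0.00965% of UMIs in these cells against 0.00124%, 0.00091% and 0.00122% in resting cells. Dendritic cell markers made up 0.0435% in WT 1 against 0.000202% in its resting cells, with 59 UMIs from Ccr7, a receptor of migrating dendritic cells. In WT 2 they made up 0.000621% and in the deficient library 0%. The part of these markers in the Lpl/Cst7 differences was not tested, and the values without WT 1 are those above.

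In interferon microglia, 0 of the 8 genes passed the test, where 2.25% of the 5608 genes were called. P2ry12 was at 3811, 4260 and 2991 CPM, 83.4%, 82.2% and 70.4% of resting (-0.32 ± 0.11, edgeR adjusted p = 0.239). Its call changed with no filter on low counts (-0.40, edgeR adjusted p = 0.0478). P2ry6 was at 411, 560.2 and 594 CPM and overlapped resting (0.05 ± 0.12, edgeR adjusted p = 0.96). In all, 2 of the 8 had an unadjusted edgeR p under 0.05, as had 539 of all 5608 genes, and DESeq2 called 0 members.

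None of these state differences was called as different between the genotypes. For the immediate early-high state 0 of 8 members were called by the interaction term, with 0.642% of all genes called, and members had values between -0.13 (P2ry6) and 0.44 ± 0.30 (Adora3, edgeR adjusted p = 0.825). For the interferon state 0 of 8 were called against 0.125% of all genes, and for Lpl/Cst7 0 of 8 against 0.0178%. The largest member values for Lpl/Cst7 were -0.50 ± 0.26 (Gpr34) and 0.56 ± 0.62 (Adora3), and no member had an unadjusted edgeR p under 0.05 in any of the 3 terms. Of all 5608 genes, 420, 293 and 289 had one in the immediate early-high, interferon and Lpl/Cst7 terms.

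Border macrophages differed from microglia most in P2ry12, Gpr34 and Adora3. P2ry12 was at 250 and 242 CPM in WT 1 and WT 2, 5.99% and 5.08% of the microglial level (-4.15 ± 0.44, edgeR adjusted p = 4.43e-14). Gpr34 was at 267 and 215 CPM, 9.33% and 7.36% (-3.50 ± 0.41, edgeR adjusted p = 5.04e-12). Tmem119 stood at 5.06% (2.83 to 8.34%) and 3.86% (1.66 to 7.60%) of its microglial level in these cells. It is one of the microglial markers whose summed share the gate required to be low here. P2ry13 was at 121 and 215 CPM or 13% and 22.6%, with intervals of 7.13 to 21.9% and 12.9 to 36.7% (-2.40 ± 0.37, edgeR adjusted p = 5.62e-08). The P2ry13 interval overlapped that of Tmem119 in WT 1 and not in WT 2.

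P2ry6 was at 242 and 256 CPM, 59.4% and 55.4% of microglia, and was not called (-0.66 ± 0.32, edgeR adjusted p = 0.165). In the 6 deficient border macrophages, which are not in the fit, P2ry6 was at 792 CPM from 16 UMIs, or 146% of microglia (83.6 to 238%). P2rx4 was higher in border macrophages, at 207 and 283 CPM against 121 and 116 in microglia (1.15 ± 0.31, edgeR adjusted p = 0.00315). P2rx7 was at 43.1 CPM in WT 1 and 350 in WT 2, from 5 and 26 UMIs, so the libraries disagreed (0.81 ± 0.38, edgeR adjusted p = 0.143). The deficient cells gave 248 CPM of P2rx7, from 5 UMIs, and 198 CPM of P2rx4, from 4. Entpd1 was at 147 and 26.9 CPM (-1.63 ± 0.39, edgeR adjusted p = 0.000614). Adora3 gave 1 UMI in WT 1, or 4.67% of its microglial level with an interval of 0.118 to 26.0%, and none in WT 2.

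Thus 5 members were called lower, where 8.67% of 5096 genes were, and 1 higher, where 9.18% were. The fit holds WT 1 and WT 2, with 27 and 19 cells, since the 6 border macrophages of the deficient library were left out. Leaving out a WT library leaves 1 border macrophage sum, which is then assumed to vary like the sums of the other classes. Without WT 1, 4 were called lower (P2ry13 was lost) and P2rx4 was no longer called (1.25, edgeR adjusted p = 0.457); without WT 2, 4 were lower (Entpd1 was lost, and P2rx7 was at -1.18) and P2rx4 was at 0.85 (edgeR adjusted p = 0.742). Immediate early genes made up 3.79% and 2.77% of UMIs in these cells against 1.31% and 0.878% in microglia; the part of that content was not tested.

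**Figure D4:**
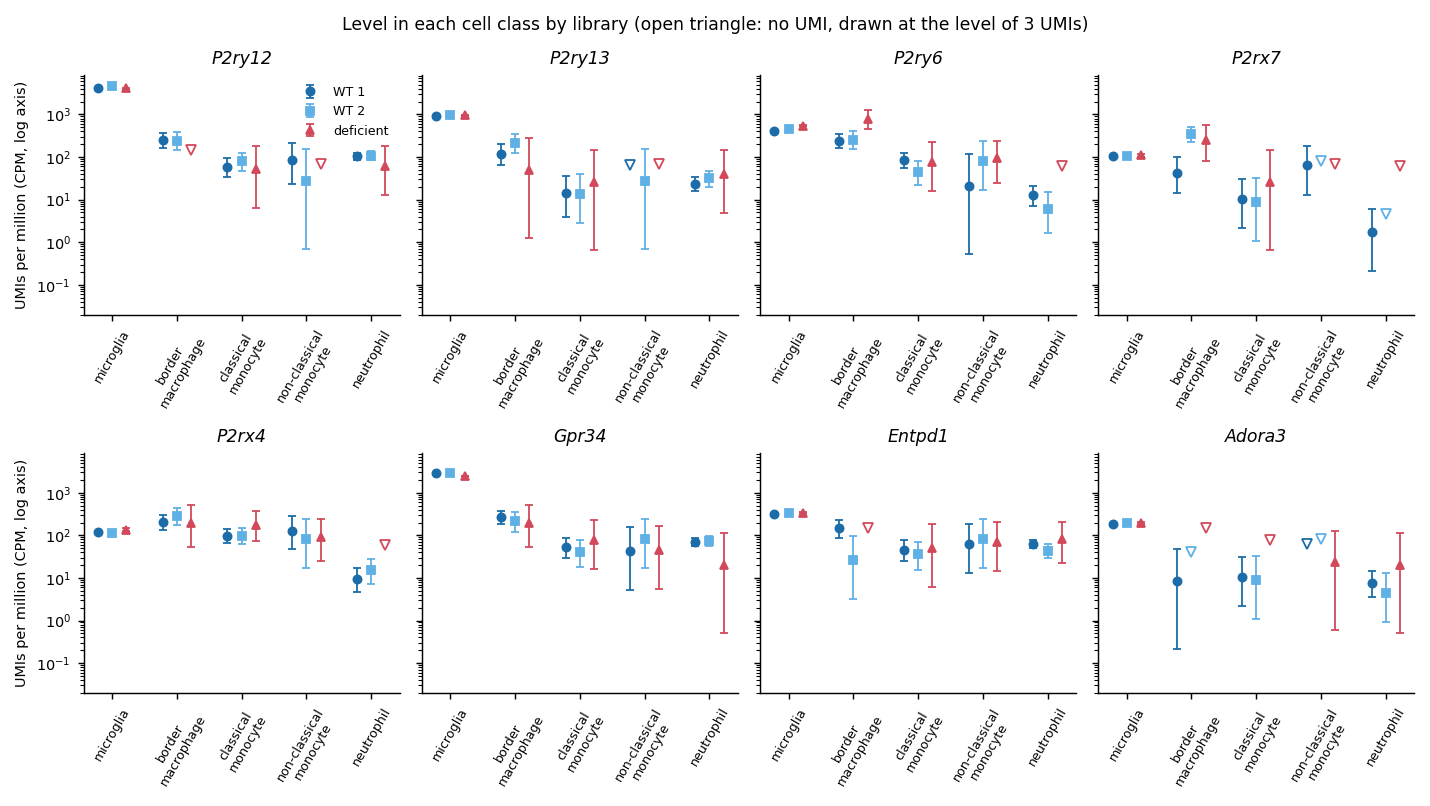
Each panel plots 1 gene's CPM on a log axis in 5 cell classes for the 3 libraries, with exact Poisson 95% intervals as bars and an open triangle, at the level of 3 UMIs, where no UMI was found. P2ry12 lies near or below 250 CPM in every class other than microglia, and P2rx4 lies between 82.0 and 283 CPM in border macrophages and monocytes.

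In neutrophils all 8 genes were called lower than in microglia, where 34.4% of 5096 genes were. P2ry12 was at 105, 108 and 60.8 CPM, 2.51%, 2.27% and 1.48% of the microglial level (-4.23 ± 0.36, edgeR adjusted p = 3.7e-20). Gpr34 was at 2.44%, 2.57% and 0.81%, and P2ry13 at 2.58%, 3.31% and 4.27%. Tmem119, one of the microglial markers whose summed share the gate required to be low here, was at 2.33%, 1.51% and 0% in the same cells. Csf1r, which is not a gate marker, was at 2.78%, 2.51% and 1.08%. The counting intervals of P2ry12 and Gpr34 overlapped those of Csf1r in each library, so no expression is read from them. P2ry13 was above Tmem119 and Csf1r in WT 2 (2.05 to 5.06% against 1.0 to 2.18% and 1.94 to 3.20%), with overlapping intervals. Free RNA in droplets leaves UMIs in cells that do not express a gene, and its part here was not tested.

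Entpd1 stood above that level: neutrophils held 63.1, 43.6 and 81.0 CPM, from 74, 29 and 4 UMIs. That is 19.6% (15.4 to 24.5%), 12.9% (8.65 to 18.6%) and 24.3% (6.63 to 62.3%) of microglia, above the shares of Tmem119 and Csf1r in each library. The fold change was -1.26 ± 0.25 (edgeR adjusted p = 5.54e-06), and without WT 2 it was -1.06 (edgeR adjusted p = 0.128). P2rx4 was at 7.73% (3.86 to 13.8%) and 13% (6.21 to 23.8%) in WT 1 and WT 2, also above both, with 11 and 10 UMIs. P2rx7 gave 2 UMIs in WT 1, or 1.62% (0.196 to 5.85%), and 0 in the other 2 libraries. Neutrophil fold changes depend on scaling: the median of all genes was -0.08 with the main scaling, -0.58 with DESeq2-type size factors and -1.49 with library totals, and the split of calls moved from 1672 higher and 1753 lower to 1216 and 2471 and to 697 and 3669. Entpd1 was then at -1.75 and -2.66, and the 8 members stayed below 0 under each scaling.

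In classical monocytes, P2rx4 was at 98.4, 98.7 and 179 CPM, or 81.0%, 85.0% and 132% of microglia. P2ry6 was at 20.7%, 9.73% and 14.2% of microglia, from 24, 10 and 3 UMIs. Tmem119, one of the microglial markers whose summed share the gate required to be low here as well, was at 1.79%, 1.93% and 0.964%. In non-classical monocytes P2rx4 was at 105%, 70.7% and 68.2%, from 6, 3 and 4 UMIs, and Entpd1 at 19.7%, 24.3% and 20.8%, from 3 UMIs in each. P2ry12 in both monocyte classes was at most 2.03% of microglia. No test was made for the monocytes.

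Other nucleotide and adenosine receptors were rarely listed. Of 16 such genes chosen for comparison, 3 were listed in all tables (P2rx1, P2ry10b and Adora2b) and 5 in none (P2rx2, P2rx3, P2rx5, Adora2a and Gpr174). None was called in any comparison where it could be tested, which was 2 genes between the genotypes and 1 among the states. A gene the tables do not list is below a limit of about 5 cells and was not measured as 0.

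Most genes of a list of 32 have products that release, degrade or take up nucleotides and adenosine. Abhd12, Abhd16a and Pla1a, also on this list, act on phosphatidylserine lipids instead. Of the 32, 21 were listed in all tables and 11 were tested among the states. In immediate early-high cells 1 rose and 1 fell, where 1044 and 904 of all 5608 genes did, with a median of 0.01 against -0.03 over all genes. Enpp4, a nucleotide phosphodiesterase, was at 27.5, 24.1 and 21.1 CPM against 18.8, 21.9 and 15.8 in resting cells (0.59 ± 0.21, edgeR adjusted p = 0.0295). Entpd6, a secreted relative of Entpd1, was at 11.2, 8.55 and 10.5 CPM against 25.2, 18.8 and 22.5 (-0.89 ± 0.27, edgeR adjusted p = 0.0125). In Lpl/Cst7 cells 1 of 11 fell, Pnp, the purine nucleoside phosphorylase, at 103, 137 and 145 CPM against 218, 205 and 236 (-0.79 ± 0.22, edgeR adjusted p = 0.0312). Between the genotypes 0 of 20 tested were called. In border macrophages, Cd38, an enzyme that makes cyclic ADP-ribose, was at 104 and 242 CPM, while microglia of WT 1 held no UMI and those of WT 2 held 3. Slc29a3, a nucleoside transporter (-1.97 ± 0.42, edgeR adjusted p = 0.000123) and Abhd12, a lysophosphatidylserine lipase (-1.75 ± 0.35, edgeR adjusted p = 3.17e-05), were lower there. In neutrophils 5 of the 11 were higher and 5 lower, where 1672 and 1753 of all 5096 genes were. The higher ones included Nt5c3, a cytosolic nucleotidase (2.11 ± 0.28, edgeR adjusted p = 6.17e-11), Slc17a9, the vesicular nucleotide transporter (2.09 ± 0.24, edgeR adjusted p = 5.91e-13), and Cd38, which rests on 2 UMIs in WT 1 and 0 in the other libraries. In CPM the gaps were smaller than these folds. Nt5c3 was at 50.3, 33.1 and 60.8 in neutrophils against 26.1, 24.8 and 29.1 in microglia. Slc17a9 was at 55.5, 76.7 and 60.8 CPM against 39.5, 35.4 and 46.3. The deficient neutrophil values rest on 3 UMIs each, and the scaling limit given above for neutrophils holds here. The lower ones included Slc29a3 (-4.18 ± 0.37), Slc29a1 (-3.66 ± 0.42, from 3, 4 and 0 UMIs in neutrophils) and Abhd12 (-3.55 ± 0.31).

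Of 34 coupling and effector genes (G proteins, regulators of G protein signalling, channels and the inflammasome), 31 were tested among the states. In immediate early-high cells 9 rose and 1 fell, where 1044 and 904 of all 5608 genes did, and the list's median was 0.13 against -0.03. Il1b, the cytokine released downstream of P2rx7, was at 478, 661 and 548 CPM against 30.9, 15.4 and 3.35 in resting cells (5.45 ± 0.29, edgeR adjusted p = 1.12e-13). Nlrp3, the inflammasome sensor, was at 250.3, 359.5 and 257 CPM against 39.3, 44.2 and 41.2 (3.05 ± 0.12, edgeR adjusted p = 3.3e-16). Rgs1, which shortens Gi signalling, was at 872, 486 and 1030.2 CPM against 294, 292 and 163 (1.88 ± 0.24, edgeR adjusted p = 1.15e-06). Pycard, the inflammasome adaptor, fell from 519, 523 and 553 CPM in resting cells to 322, 282 and 314 (-0.54 ± 0.11, edgeR adjusted p = 0.00064). P2rx7 itself was lower in CPM in the same cells, as given above, a call kept in 7 of 12 alternative settings. Counted per cell, P2rx7 was at 86.0%, 99.5% and 87.7% of resting (WT 1, WT 2, deficient). The interaction term was above 0 and called for 3 of the 31: Il1b at 2.67 ± 0.56, Rgs1 at 1.62 ± 0.30 and Gnas at 0.95 ± 0.22. It stands for a larger immediate early-high minus resting difference in the deficient library and does not measure the level. The deficient level in immediate early-high cells was above both WT libraries for Rgs1, between them for Il1b and below both for Gnas. In immediate early-high cells WT 1 and WT 2 had 767 and 769 CPM of Gnas and the deficient library 217. In interferon cells 1 of 31 rose, Il1b (3.10 ± 0.51), and in Lpl/Cst7 cells 2 rose, Il1b (4.74 ± 0.41) and Gnas (0.84 ± 0.17). In border macrophages 2 of 27 tested were higher, Il1b (4.71 ± 0.40) and Nlrp3 (2.35 ± 0.31), and 4 lower, among them Rgs10 (-1.49 ± 0.35), Rgs1 (-1.34 ± 0.42) and Pycard (-1.11 ± 0.36), where 468 and 442 of all 5096 genes were. In neutrophils 10 of 27 were higher and 8 lower, where 1672 and 1753 of all genes were. Il1b (5.18 ± 0.40), Gng5 (2.10 ± 0.28) and Grk2 (2.07 ± 0.21) were among the higher ones. These calls depend on the scaling as well. Gng5 was at 688, 631 and 709 CPM in neutrophils against 340, 361 and 399 in microglia. Rap1b, also called higher, was at 380 and 307 CPM in WT 1 and WT 2 neutrophils against 460 and 492 in microglia. In the deficient library Rap1b was at 304 CPM against 198. Rgs10 (-3.28 ± 0.33), Il18 (-2.91 ± 0.55) and Kcnk13, a potassium channel with 1 UMI in all neutrophils of the 3 libraries, were among the lower ones.

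In the deficient library 7 of 33 tested were lower in microglia and 0 higher, among all genes 729 and 166 of 11881. Gnas, the Gs alpha subunit, was at 592 and 582 CPM in WT against 94.5, Rap1b at 460.2 and 492 against 198 and Il1b at 138 and 113 against 60.2. Gnas was also lower in resting, immediate early-high, interferon and Lpl/Cst7 cells taken separately. The part of any difference in how the tables were made was not tested. Il1b within immediate early-high cells was at 548 CPM in the deficient library, inside the WT range of 478 to 661. These cells were 133 of its 2201 microglia against 623 of 3916 and 417 of 4411. Il1b was at 3.35 CPM against 30.9 and 15.4 in WT resting cells, and at 62.5 against 139 and 175 in WT interferon cells. In Lpl/Cst7 cells it was at 362 CPM, between the WT values of 317 and 553. The part of cell numbers in the Il1b difference was not tested. None of the 8 members passed the test between the genotypes in microglia, as given above, and the deficient side of each value is 1 library.

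Over the 12 sums of library and state, each member was set beside the 5878 genes with at least 20 CPM on average (predicted genes named Gm or Rik left out), by Pearson's r of log2(CPM + 1). The sums share libraries, depth and cells of one gate, and those of the Lpl/Cst7 state hold few UMIs, so the values are a description. Among the members, P2ry12 was closest to Gpr34 (r = 0.91), P2ry13 (0.84) and Entpd1 (0.83) and ran against P2rx4 (-0.66). P2rx7 and Adora3 had r = 0.80. The genes most like P2ry12 were Ypel3 (0.95), Cmtm6 (0.95) and Selplg (0.94), the last a microglial adhesion ligand. For Gpr34 they were F11r, Pld1 and Serinc3 (0.94 each), and for P2ry13 Rnase4 (0.96), Cwf19l2 (0.95) and Scamp2 (0.91). For P2ry6 they were Hsbp1 (0.97), Arpp19 (0.94) and Aif1 (0.93), and for P2rx7 Spcs1 (0.97), Laptm4a (0.97) and Ms4a6d (0.95). For P2rx4 they were Crlf2 (0.96), Zfp688 (0.93) and Rhoc (0.91), for Entpd1 Ggt5 (0.95), Tnfrsf17 (0.94) and Ecscr (0.92), and for Adora3 Mat2b (0.94), Tmem33 (0.93) and Tmem60 (0.93).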

How the data were processed

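The deposited values are raw UMI counts, whole numbers for each gene in each barcode, and the submitters' processing notes name Cell Ranger 3.0, Seurat 2.2 and the build mm10. Genes found in under 5 cells are almost all missing from a table. Barcodes needed 500 UMIs, 200 genes and a mitochondrial share no higher than 10%. No doublet caller was run; cells that passed the marker limits of 2 classes were set aside as mixed. A state or class with fewer than 10 cells in a library was left out of the class fit, while all 12 sums of library and state, the 8-cell one included, entered the state fit. Counts were summed per library and class or state and tested with edgeR 4.0.16 (R 4.3.3; TMM scaling, filter on low counts, quasi-likelihood test, library as a term for states and classes), with p-values adjusted by Benjamini-Hochberg over all genes tested and called under 0.05. The genotype fit compares 2 libraries with 1, and states of a library share its droplets. In the state fits p-values measure the spread between sums within these libraries. DESeq2 1.42.0, other scalings, filters, gates and thinned cells were tried as alternatives, and the fit was tested on simulated data. Intervals cover counting error only. All 8 members were named; from each comparison list, the called genes with the 3 largest fold changes in each direction; and for each member the 3 genes of highest correlation. The members and lists were chosen with earlier results of these data known.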

Additional observations from a re-analysis of the deposited data

How the results depend on the processing

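The number of genes called between the genotypes was 895, and was 483 with DESeq2, 289 in immediate early-high microglia alone and 79 in interferon microglia alone, the last chosen after seeing the data. For immediate early-high cells it was 1948, against 1195 with DESeq2, 681 with sums of thinned cells, 1092 without the library term, 3034 with library totals (chosen after seeing the data) and 975 to 2281 with 1 library left out. For interferon cells it was 126, against 195 with no count filter, 60 with thinned sums and 78 against all microglia under 2% immediate early share (chosen after seeing the data). For Lpl/Cst7 cells it was 389, against 228 with thresholds doubled, 131 with gates on thinned counts, 75 with thinned sums, 171 without the library term and 115 to 330 with 1 library left out. With no count filter the interaction counts moved from 7 to 13 for interferon and from 1 to 7 for Lpl/Cst7, and the neutrophil count from 3425 to 5740. With 1 library left out the neutrophil count was 1638 to 3639 and the border macrophage count, 910 in all, was 252 to 1078.

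Values that changed sign were all uncalled. With 1 library left out, the genotype differences of P2ry13 were -0.0065 to 0.045 and of Entpd1 -0.018 to 0.055 (no test), P2ry6 in interferon cells was at -0.028 to 0.13, P2rx7 in Lpl/Cst7 cells at -0.63 to 0.064 and Adora3 there at -0.37 to 0.24, and P2rx7 in border macrophages at -1.18 to 1.77. Between the genotypes, P2ry13 was at -0.065 and Adora3 at -0.0078 in resting cells, P2ry12 at 0.010 in immediate early-high cells, P2ry13 at -0.19 and Adora3 at -0.055 in interferon cells, and P2rx7 at -0.11 and Entpd1 at -0.16 in intermediate cells, the last 4 chosen after seeing the data. For immediate early-high cells P2rx4 was at -0.038 with thinned sums and -0.16 with library totals. For interferon cells P2ry6 was at -0.033 and P2rx7 at -0.026 with no count filter, P2ry6 at -0.021 with doubled thresholds and -0.043 with thinned sums, and P2rx7 at -0.026 with thinned sums. The Entpd1 interaction was at 0.0096 under the strict cell filter. The cause was not tested.

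No paired analysis was possible because there is 1 deficient library, and its labels give it no number to pair with a WT library; states and classes of a library are already compared within it. Interaction terms with a library left out could not be fitted, for want of residual degrees of freedom. The 8 Lpl/Cst7 cells of the deficient library and the few UMIs of P2rx7 and Adora3 limit what can be seen there.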
